A study of Bos taurus with 90 samples.

Results

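DGAT2 (ENSBTAG00000001154) and MID1IP1 (ENSBTAG00000011463) are genes of hepatic lipid synthesis, and their counts are described here in liver biopsies of steers that differed in breed, diet and residual feed intake (RFI). They were 2 of the 24616 genes in the count table. They were chosen by their differences in read counts between low and high RFI steers, because the RFI comparison of the study itself had named them: both in Charolais steers during the first high-concentrate phase, and MID1IP1 also in Charolais steers offered grass. The values of those comparisons are therefore given as a description, with no test.

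DGAT2 is an enzyme of the endoplasmic reticulum that joins a fatty acid to diacylglycerol, the last step of triglyceride synthesis. MID1IP1 binds acetyl-CoA carboxylase (ACACA and ACACB), the enzyme that commits acetyl-CoA to fatty acid synthesis, and promotes its assembly into active polymers. Its paralogue is THRSP. In ruminants most new fatty acid is made in adipose tissue, while the liver mainly re-esterifies fatty acids taken up from blood and oxidises them.

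Liver RNA had been sequenced from Charolais (CH, a beef breed) and Holstein-Friesian (HF, a dairy breed) steers in 3 feeding phases, H1, ZG and H2, which followed each other in that order. In H1 and H2 the steers ate to appetite a concentrate that held, per kg, 860 g of barley, 60 g each of soya bean meal and of molasses, and 20 g of a mineral and vitamin mix, with a restricted amount of grass silage. In ZG they were offered cut grass, and silage or grazed grass was fed between the phases. RFI is the feed eaten beyond that predicted from body weight and growth, so that a low RFI steer is the more feed efficient, and steers were ranked anew within breed in each phase, those of middle rank being left out. For CH there were 9 low and 11 high RFI libraries in H1, 3 and 3 in ZG, and 9 and 8 in H2. For HF the numbers were 7 and 9 in H1, 10 and 8 in ZG, and 5 and 8 in H2. HF steers were on average older than CH steers when H1 began, and every steer was older in each later phase, so diet, age and time of biopsy cannot be told apart, nor can breed and age. The steers came from commercial herds, and steer number 1797 occurs under both breed labels.

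The 90 libraries held 9097695 to 63621304 reads on genes, with a median of 18858293. DGAT2 was covered by 301 to 4167 reads per library and MID1IP1 by 61 to 2757, so both genes were well above the limit of counting in every library. Levels are given as CPM, the reads on a gene scaled to a common library total after TMM normalisation over all 90 libraries, and levels of different genes are not compared because gene lengths were not used. The gene table pairs few identifiers with names. None of the 40 marker genes of hepatocytes and other liver or blood cells could be matched to an identifier, so the labelled tissue could not be checked against them. The hepatocyte product FGG, a fibrinogen chain picked after its name was seen, stood at 5697 to 38878 CPM in the 90 libraries. The study had listed FGG for an RFI difference in CH steers offered grass. FETUB, looked at beside it, stood at 40.0 to 566 CPM. In bulk tissue, fewer cells that express a gene and less RNA per cell cannot be told apart.

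Both genes were expressed in every library at a moderate level. DGAT2 ranged from 15.8 to 142 CPM with a median of 35.8, and MID1IP1 from 6.43 to 59.5 CPM with a median of 28.5. Steers of one group differed more in these genes than in most genes of like level. The standard deviation within groups was 0.41 on the log2 scale for DGAT2 and 0.50 for MID1IP1. The median over genes within 0.5 log2 units of the same level was 0.28 in both cases, and 80.1% of 1722 such genes varied less than DGAT2 and 86.6% of 1959 less than MID1IP1. For DGAT2 the widest group was high RFI HF in H1, with a log2 standard deviation of 0.84. It holds the library at 142 CPM, so the rank of DGAT2 rests in part on 1 library. That rank was not computed without it.

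By mean log2 CPM, DGAT2 was ordered CH H2, HF ZG, CH ZG, HF H2, CH H1 and HF H1. The corresponding mean levels were 40.2 ± 11.3 (SD, n = 17), 38.9 ± 7.95 (n = 18), 38.1 ± 5.47 (n = 6), 36.0 ± 7.35 (n = 13), 36.6 ± 10.5 (n = 20) and 35.5 ± 29.3 CPM (n = 16). No neighbours in that order differed by more than the smaller of their standard deviations, and the whole range was 0.36 on the log2 scale. The wide error of HF H1 came from 1 library, described below.

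MID1IP1 was ordered HF H1, CH H1, HF H2, CH ZG, HF ZG and CH H2, so that both H1 sets led. The mean levels in that order were 37.5 ± 11.2 (SD, n = 16), 35.6 ± 12.2 (n = 20), 31.2 ± 8.25 (n = 13), 28.8 ± 12.02 (n = 6), 25.8 ± 9.43 (n = 18) and 25.2 ± 9.58 CPM (n = 17). Again no neighbours differed by more than the smaller standard deviation, and the whole range was 0.64 on the log2 scale.

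**Figure D1:**
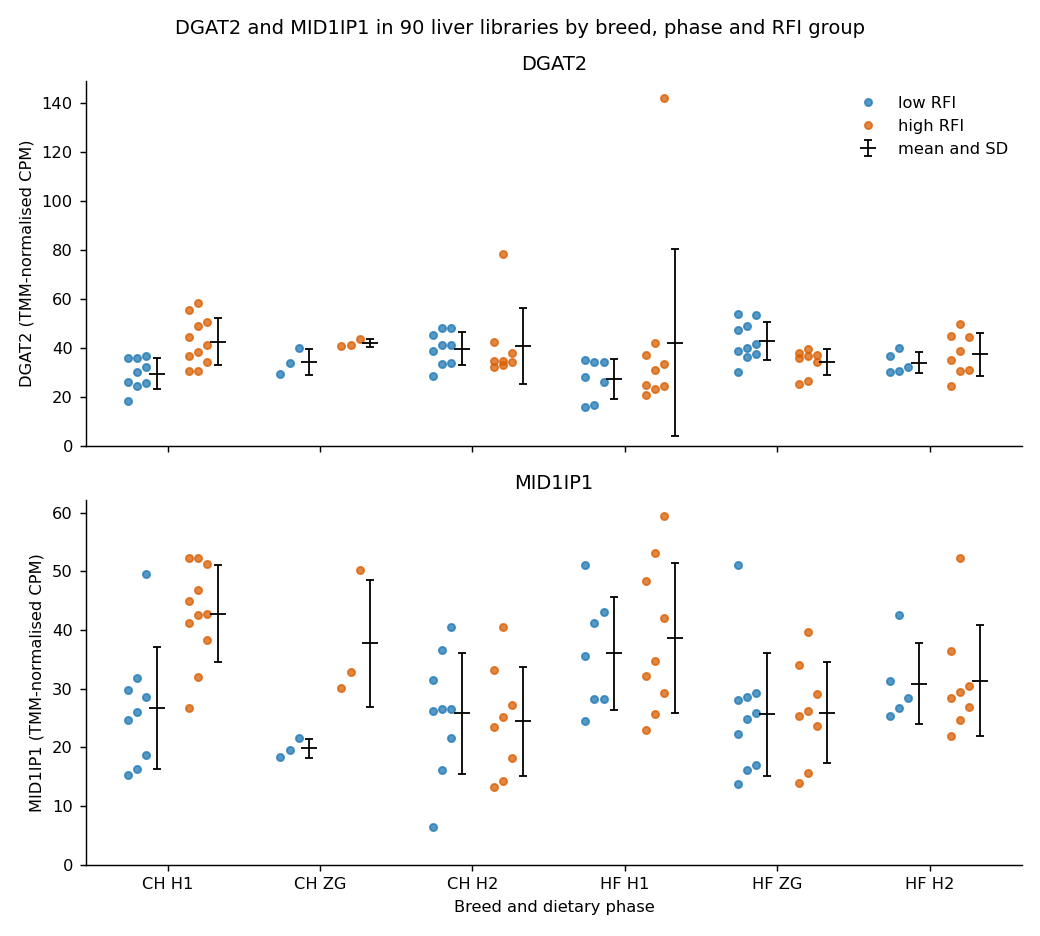
Each point is 1 library, plotted as TMM-normalised CPM (y axis, starting at 0) for the 6 combinations of breed and phase, with low RFI in blue and high RFI in orange and black marks for the mean and SD of each of the 12 groups. DGAT2 lay between 15.8 and 78.2 CPM in all libraries but that of HF steer 2065 in H1, at 142 CPM, and MID1IP1 was highest in the H1 phase of both breeds.

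The first comparison asked whether the 2 genes differed between feeding phases, averaging over RFI groups. On that average, MID1IP1 was lower in the later phases than in H1. This was called in CH when the same concentrate was fed again and in HF when grass was fed. In CH, MID1IP1 had a lowest value of 15.3, a median of 35.1 and a highest value of 52.2 CPM in H1, against 6.43, 26.2 and 40.5 CPM in H2. The ranges overlapped, but 14 of the 17 H2 libraries lay under the H1 median. The log2 difference of H2 from H1 was -0.43 (SE 0.16, adjusted p = 0.0162, edgeR's quasi-likelihood test), a ratio of 0.743. In the same comparison 66.6% of the 13945 genes tested were called at an adjusted p under 0.1, and 31.8% were called as lower, so a call was common there. The difference lay mostly in high RFI CH steers, with a mean of 42.8 CPM in H1 and 24.4 CPM in H2. Low RFI CH steers hardly differed, at 26.7 and 25.8 CPM. The H1 values of both groups are also those that chose the gene, and phases were not tested within RFI groups.

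In HF, MID1IP1 had a lowest value of 22.9, a median of 35.2 and a highest value of 59.5 CPM in H1, against 13.7, 25.7 and 51.02 CPM in ZG. Of the 18 ZG libraries, 16 lay under the H1 median and 6 under every H1 library. The log2 difference was -0.53 (SE 0.16, edgeR adjusted p = 0.00559), a ratio of 0.692. Here 58.0% of all genes tested were called, and 29.2% of all genes tested were called as lower in ZG. From H1 to ZG the mean went from 36.0 to 25.7 CPM in low and from 38.6 to 25.9 CPM in high RFI HF steers.

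The other phase contrasts of MID1IP1 were not called by edgeR. In CH the log2 difference of ZG from H1 was -0.31 (SE 0.22, edgeR adjusted p = 0.349), where 17.8% of genes were called and 6.96% as lower, and 5 of the 6 ZG libraries were under the H1 median. In HF the difference of H2 from H1 was -0.26 (SE 0.18, edgeR adjusted p = 0.212), where 61.9% of genes were called and 31.1% as lower, and 10 of 13 H2 libraries were under the H1 median. With the 2 HF sets alone in the fit, this difference was -0.30 and was called (edgeR adjusted p = 0.0811). Between grass and the second concentrate phase, ZG minus H2, the log2 differences were 0.12 in CH (95% interval -0.32 to 0.57) and -0.27 in HF (-0.62 to 0.08). Those last contrasts called 2.82% and 7.24% of genes.

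The lower MID1IP1 of H2 was also seen within animals. Of the 8 steers with a library in both phases, 4 of each breed, 7 had a lower value in H2. In CH, steer 307 went from 51.3 to 36.6 CPM, steer 364 from 46.9 to 33.3, steer 1100 from 31.8 to 23.5 and steer 1320 from 44.9 to 40.5. In HF, steer 2071 went from 32.1 to 26.7 CPM, steer 2101 from 42.0 to 28.5, steer 2220 from 51.1 to 25.4 and steer 5632 from 28.3 to 29.5. All 4 CH steers were thus lower in H2, and steer 5632 was the exception among the HF steers. The mean within-steer log2 difference was -0.42 ± 0.32 (SD, n = 8). The exact two-sided sign-flip permutation test gave p = 0.0156, or 0.0938 after adjustment over the 6 tests of this kind. These steers also enter the group comparison above, so it is not a second set of animals. Steers 307, 1100, 2071 and 5632 changed RFI group between H1 and H2, so for these 4 of the 8 phase and RFI rank changed together.

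From H1 to ZG, 5 of 6 steers with both libraries had lower MID1IP1 in ZG, with a mean log2 difference of -0.43 ± 0.65 (SD, n = 6, exact permutation p = 0.156, adjusted 0.469). The 3 HF steers moved alike, steer 2065 from 59.5 to 28.5 CPM, steer 2069 from 25.7 to 13.9 and steer 5632 from 28.3 to 16.1. The 3 CH steers did not, since steer 1816 went from 18.7 to 30.2 CPM, steer 1831 went from 29.7 to 21.6 and steer 307 from 51.3 to 50.2. Steers 1816 and 2065 also changed RFI group between these phases. The difference between the breeds in this change was not tested within steers. For the 4 steers with ZG and H2 libraries, 2 were higher and 2 lower in ZG, and the smallest p this number allows is 0.125.

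**Figure D2:**
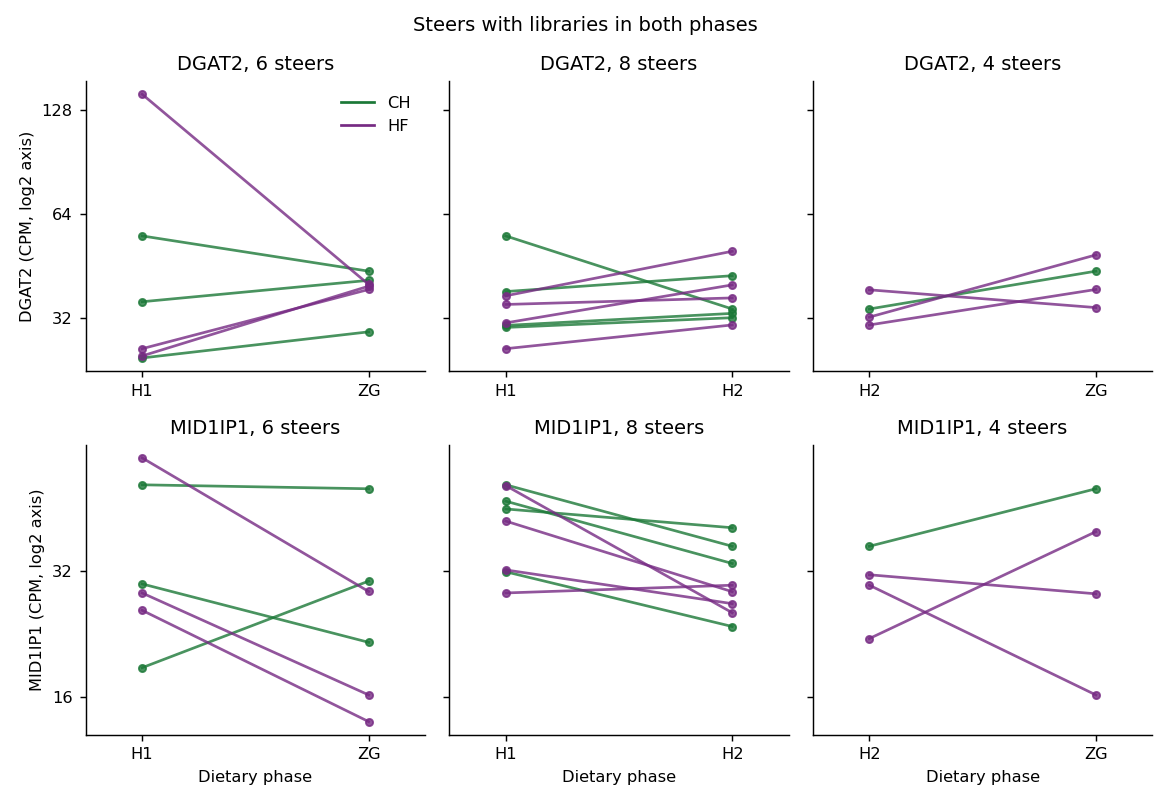
Lines join the 2 libraries of 1 steer (CPM on a log2 axis) for the phase pairs H1 and ZG, H1 and H2, and H2 and ZG, with DGAT2 above, MID1IP1 below, CH in green and HF in purple. MID1IP1 was lower in H2 than in H1 in 7 of 8 steers, while the steepest line for DGAT2 is HF steer 2065, from 142 to 40.0 CPM.

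Other properties of the libraries moved with phase as well. The first principal component of all genes, which held 36.9% of the variance, had a median score of -35.6 in H1, 2.77 in ZG and 29.0 in H2. The 10 most counted genes took a median of 26.3% of reads in H1, 28.1% in ZG and 29.7% in H2. After removal of the group means, MID1IP1 had a Spearman rho of -0.34 with the component score and of -0.36 with that share over the 90 libraries, given as a description. The corresponding values for DGAT2 were -0.05 and 0.13. The part of these properties in the phase differences was not tested.

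Averaged over RFI groups, DGAT2 did not differ between phases beyond the error in CH. Its log2 differences were 0.10 for ZG minus H1 (95% interval -0.30 to 0.50), 0.19 for H2 minus H1 (-0.10 to 0.47) and -0.09 for ZG minus H2 (-0.50 to 0.32), and none was called by edgeR. Levels had a lowest value of 18.3, a median of 35.7 and a highest value of 58.3 CPM in H1, against 29.2, 40.4 and 43.7 CPM in ZG and 28.3, 37.7 and 78.2 CPM in H2. The 3 phases overlapped widely. The RFI groups did not move alike. Means in H1, ZG and H2 were 29.4, 34.3 and 39.7 CPM in low RFI and 42.6, 41.9 and 40.9 CPM in high RFI CH steers. The H1 values are those that chose the gene, and phases were not tested within RFI groups.

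In HF, the result for DGAT2 rested on 1 library. DGAT2 had a lowest value of 15.8, a median of 29.5 and a highest value of 142 CPM in H1, against 25.4, 37.7 and 53.9 CPM in ZG and 24.2, 35.1 and 49.9 CPM in H2. Of the 18 ZG libraries 16 lay above the H1 median, and of the 13 H2 libraries 12 did. With all libraries the log2 difference was 0.18 for ZG minus H1 (SE 0.15, edgeR adjusted p = 0.326) and 0.07 for H2 minus H1 (SE 0.16, edgeR adjusted p = 0.719). Without the H1 library of steer 2065, left out after the data were seen, the differences were 0.43 (SE 0.11, edgeR adjusted p = 0.00148) and 0.33 (SE 0.12, edgeR adjusted p = 0.0226), and DGAT2 was called higher in both later phases. Without that library 28.5% of genes were called as higher in ZG and 30.2% as higher in H2.

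With every library kept, the limma-voom fit, which works on log values, gave 0.34 for ZG minus H1 (adjusted p = 0.0348), and 0.34 with the steer as a replicate block (adjusted p = 0.0363). For H2 minus H1 limma-voom gave 0.23 (adjusted p = 0.193) with every library. DESeq2 gave 0.17 and 0.06 for the same contrasts (adjusted p = 0.379 and 0.802). The call for DGAT2 in HF therefore changed with the model and with this library, which was not so for the 2 calls of MID1IP1.

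Within animals, DGAT2 was higher in H2 than in H1 in 7 of 8 steers and in ZG than in H1 in 4 of 6. The HF steers with H1 and H2 libraries were all higher in H2, steer 2071 from 31.0 to 39.9 CPM, steer 2101 from 37.1 to 49.9, steer 2220 from 35.0 to 36.6 and steer 5632 from 26.1 to 30.6. Of the CH steers, steer 307 went from 55.3 to 34.0 CPM, while steers 364, 1100 and 1320 were higher in H2 by 0.12, 0.09 and 0.15 on the log2 scale. The mean log2 difference over the 8 steers was 0.09 ± 0.35 (SD, n = 8, exact permutation p = 0.492, adjusted 0.738). From H1 to ZG it was -0.08 ± 0.93 (SD, n = 6, exact permutation p = 0.906, adjusted 1), and 0.27 ± 0.39 (SD, n = 5, exact permutation p = 0.25) without steer 2065.

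**Figure D3:**
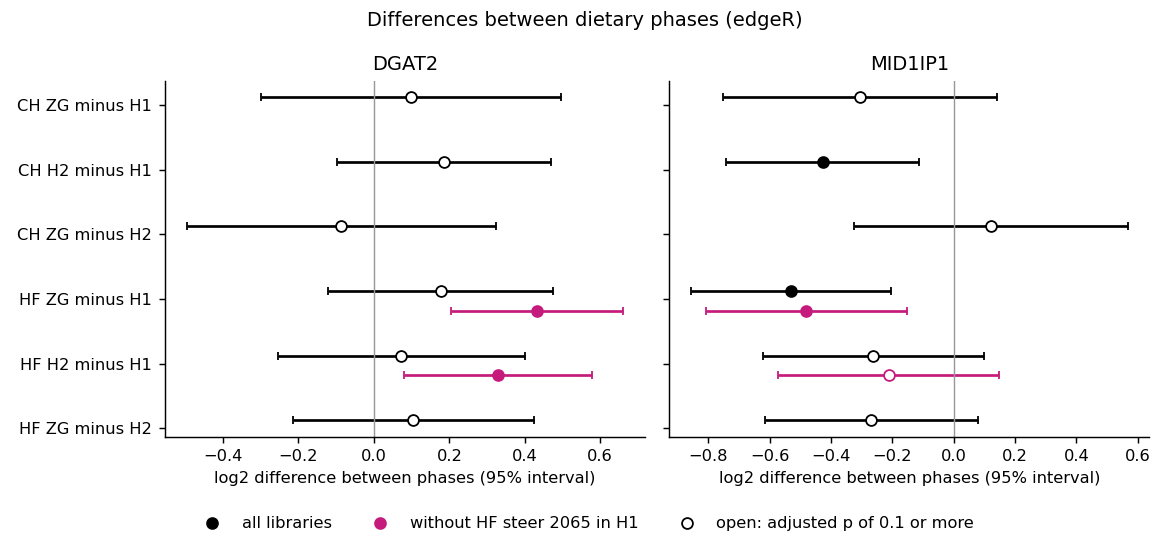
Points are edgeR log2 differences between phases and bars their 95% intervals (x axis), by breed and phase pair (y axis), with all libraries in black and without the H1 library of HF steer 2065 in magenta; filled points have an adjusted p under 0.1. MID1IP1 was called in CH for H2 minus H1 and in HF for ZG minus H1, and DGAT2 was called in HF when that library was left out, with a log2 difference of 0.43 for ZG minus H1.

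Among the few genes looked at, the library of HF steer 2065 in H1 stood apart from its group most in DGAT2 and CIDEC. The other genes were not ranked for this library. The library held 4167 DGAT2 reads of 28589628 reads on genes, and its 142 CPM compares with 20.7 to 41.8 CPM in the other 8 high RFI HF steers of H1. It also held the highest MID1IP1 value of all 90 libraries, 59.5 CPM, against 22.9 to 53.2 CPM in those 8 steers. CIDEC, a protein of lipid droplets, was at 30.8 CPM, again the highest of all libraries, against 0.340 to 2.57 CPM. APOC3 and GPD1 were also the highest of its group, while G0S2, at 19.2 CPM, lay inside the 6.41 to 23.9 CPM of the other 8 steers. Its first component score of -34.2 and its 28.1% share of reads on the 10 most counted genes lay inside the ranges of its group, -47.6 to -6.40 and 24.1% to 29.3%. In ZG the same steer, then ranked as low RFI, had 40.0 CPM of DGAT2, 28.5 CPM of MID1IP1 and 1.53 CPM of CIDEC. Adipocyte markers could not be matched to identifiers, so fat tissue in the biopsy was not tested.

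The second comparison asked whether the breeds differed within a phase. Neither gene was called by edgeR in any phase. For DGAT2 the log2 difference, CH minus HF, was 0.07 in H1 (95% interval -0.22 to 0.36), -0.01 in ZG (-0.42 to 0.39) and 0.18 in H2 (-0.14 to 0.50). For MID1IP1 it was -0.14 in H1 (-0.46 to 0.17), 0.08 in ZG (-0.36 to 0.53) and -0.31 in H2 (-0.66 to 0.04, edgeR adjusted p = 0.728). Few genes differed between breeds in these contrasts, 2.12% in H1, 0.0645% in ZG and 0.81% in H2. Without the library of steer 2065, DGAT2 in H1 was 0.32 higher in CH on the log2 scale (SE 0.11) and was still not called (edgeR adjusted p = 0.177).

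Although the calls in MID1IP1 fell on different phases in CH and HF, the change between phases was not shown to differ between breeds. The interaction of breed and phase was 0.22 for ZG minus H1 (95% interval -0.32 to 0.77), 0.39 for ZG minus H2 (-0.17 to 0.95) and -0.17 for H2 minus H1 (-0.64 to 0.31) on the log2 scale. For DGAT2 it was -0.08 (-0.58 to 0.42), -0.19 (-0.71 to 0.33) and 0.11 (-0.32 to 0.55). In these 3 contrasts edgeR called 0% of genes, with 418, 761 and 330 genes at an unadjusted p under 0.05, and DESeq2 called 1, 27 and 0 genes. These intervals are wide, and a breed difference in the phase change of the size of the changes themselves remains possible.

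The third comparison, the one the study was designed for, set low against high RFI steers within each breed and phase. The values that chose the genes were as follows. In CH during H1, DGAT2 was 29.4 ± 6.26 CPM in low RFI steers (SD, n = 9) and 42.6 ± 9.67 CPM in high RFI steers (n = 11). The lowest, median and highest values were 18.3, 30.1 and 36.8 CPM in the low group and 30.5, 41.2 and 58.3 CPM in the high group. The groups overlapped, and 5 of the 9 low values lay under the lowest high value. MID1IP1 was 26.7 ± 10.4 CPM in low (n = 9) and 42.8 ± 8.19 CPM in high RFI steers (n = 11), with lowest, median and highest values of 15.3, 26.1 and 49.6 CPM against 26.7, 42.7 and 52.2 CPM. Here too 5 of the 9 low values lay under the lowest high value. The highest low RFI value belonged to steer 950, and the other 8 low RFI steers did not exceed 31.8 CPM. Over all genes, this comparison gave 2 calls of 12920 by edgeR, or 0.0155%, and 1.18% by DESeq2, and nothing is read from that for the chosen genes.

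In CH during ZG, MID1IP1 was 18.4, 19.5 and 21.6 CPM in the 3 low RFI steers and 30.2, 32.9 and 50.2 CPM in the 3 high RFI steers, with no overlap. This comparison also chose MID1IP1, and its log2 difference of -0.91 is given without a test. DGAT2, which it did not choose, was 29.2, 33.7 and 39.9 CPM in the low and 40.8, 41.1 and 43.7 CPM in the high RFI steers. Those groups did not overlap, although the highest low and the lowest high value were less than 1 CPM apart. The share of all genes that separate these 3 and 3 steers was not computed. Nothing is therefore read from the absence of overlap for either gene. The log2 difference of DGAT2 was -0.27 (SE 0.17, edgeR adjusted p = 0.428). For DGAT2 the exact permutation test gave p = 0.1, the smallest that 3 against 3 steers allow. edgeR called 0% of genes there, with 1755 at an unadjusted p under 0.05, and DESeq2 called 158, or 1.26%. Of these 6 steers, 307, 1816 and 1831 also had H1 libraries, and steer 1816 had been ranked as low RFI in H1.

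In CH during H2 the gap between RFI groups was not seen for either gene. DGAT2 had lowest, median and highest values of 28.3, 41.0 and 48.1 CPM in low and 32.1, 34.7 and 78.2 CPM in high RFI steers. MID1IP1 had values of 6.43, 26.5 and 40.5 CPM in low and 13.3, 24.4 and 40.5 CPM in high RFI steers. The groups overlapped almost completely. The log2 differences, low minus high, were -0.03 for DGAT2 (95% interval -0.39 to 0.32) and 0.08 for MID1IP1 (-0.50 to 0.67). With 17 steers, differences inside those intervals remain possible. Set against the RFI difference of HF in the same phase, that of CH was 0.10 higher for DGAT2 (95% interval -0.55 to 0.74) and 0.10 higher for MID1IP1 (-0.60 to 0.81), in a contrast where edgeR called 0.00717% of genes.

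In HF steers neither gene was called in any phase. In H1, DGAT2 had lowest, median and highest values of 15.8, 28.0 and 35.0 CPM in low and 20.7, 31.0 and 142 CPM in high RFI steers. The log2 difference of -0.63 (SE 0.39) became -0.12 (SE 0.20) without steer 2065, and neither was called (edgeR adjusted p = 0.789 and 0.944). MID1IP1 in H1 had values of 24.6, 35.6 and 51.1 CPM in low and 22.9, 34.7 and 59.5 CPM in high RFI steers, with a log2 difference of -0.10 (SE 0.20, edgeR adjusted p = 0.943).

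In ZG, DGAT2 of HF steers had lowest, median and highest values of 30.05, 40.7 and 53.9 CPM in low and 25.4, 36.3 and 39.6 CPM in high RFI steers. The sign was opposite to that in CH, but neither difference was called, nor was the breed difference between them, given below. Of the 10 low RFI steers, 6 lay above every high RFI steer. The log2 difference was 0.31 (SE 0.13), which was not called across genes (edgeR adjusted p = 1), and the exact permutation test gave p = 0.0207, or 0.186 after adjustment over the 9 tests of this kind. MID1IP1 had values of 13.7, 25.3 and 51.02 CPM in low and 13.9, 25.8 and 39.6 CPM in high RFI steers, and the groups overlapped throughout.

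In H2, the 5 low RFI HF steers had 30.002, 30.5, 32.2, 36.6 and 39.9 CPM of DGAT2, inside the range of 24.2 to 49.9 CPM of the 8 high RFI steers. For MID1IP1 they had 25.4, 26.7, 28.4, 31.3 and 42.6 CPM, inside the range of 22.0 to 52.2 CPM. The log2 differences were -0.14 for DGAT2 (95% interval -0.49 to 0.21) and -0.02 for MID1IP1 (-0.42 to 0.38). In the H1, ZG and H2 comparisons of HF and the H2 comparison of CH, edgeR called 0% of genes, with 863, 261, 435 and 355 genes at an unadjusted p under 0.05, and DESeq2 called 26, 2, 5 and 4 genes. The permutation tests over these groups gave an adjusted p of 0.186 or more on log2 CPM with TMM, and of 0.163 or more under the alternatives run.

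The RFI difference of DGAT2 in HF changed sign between H1 and ZG, and that change was tested after the data were seen. It was 0.96 on the log2 scale (SE 0.30) but was not called over all genes (edgeR adjusted p = 0.663), and it was 0.45 (SE 0.23, edgeR adjusted p = 0.997) without steer 2065. In this contrast 0.0143% of genes were called. Between CH and HF in ZG, the RFI difference of DGAT2 differed by -0.61 (SE 0.41, edgeR adjusted p = 0.376).

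**Figure D4:**
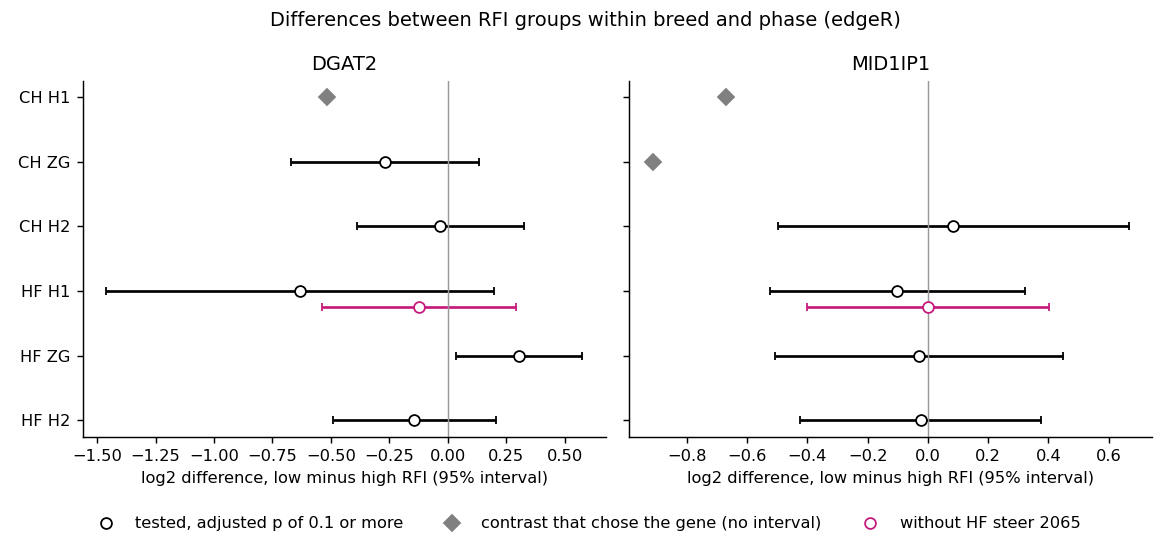
Points are edgeR log2 differences, low minus high RFI (x axis), for each breed and phase (y axis), with 95% intervals as bars; grey diamonds mark the comparisons that chose the gene, which carry no interval, and magenta the value without HF steer 2065. No tested difference was called, and DGAT2 in HF during ZG, at 0.31, is the one interval that does not reach 0.

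The 2 genes were not shown to rise and fall together from steer to steer. With 6 to 20 steers in a set, a moderate relation could have been missed. After RFI group means were removed, Pearson's r of their log2 CPM was -0.10 in CH H1 (n = 20), -0.45 in CH H2 (n = 17), 0.37 in HF H1 (n = 16), 0.23 in HF ZG (n = 18) and 0.14 in HF H2 (n = 13). Spearman's rho was -0.12, -0.42, 0.25, 0.13 and 0.02 in the same order. Permutation within RFI groups gave p = 0.676, 0.0552, 0.206, 0.365 and 0.693 for r and p = 0.619, 0.104, 0.362, 0.622 and 0.952 for rho. After adjustment over the 6 breed and phase sets the lowest value was 0.331 for r and 0.622 for rho. In the 6 CH ZG steers r was -0.05 and rho 0.14 (exact permutation p = 0.861 and 0.833).

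Without the 2 steers farthest from the DGAT2 median, r became -0.12 in CH H1, -0.27 in CH H2, -0.22 in HF H1, 0.46 in HF ZG and 0.27 in HF H2, so the positive value in HF H1 rested on them. In CH ZG 4 steers remained, too few to read. Over all 90 libraries with the 12 group means removed, rho between the genes was -0.03.

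**Figure D5:**
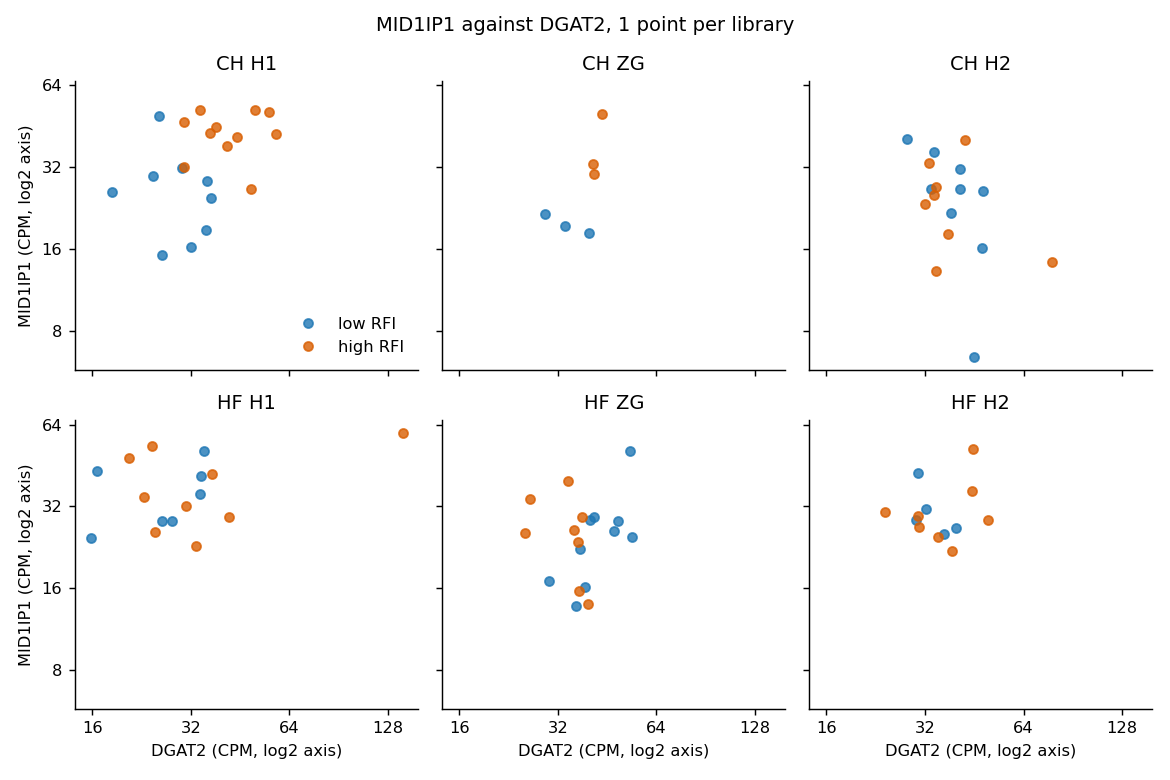
MID1IP1 (y axis) is plotted against DGAT2 (x axis), both in CPM on log2 axes, with 1 point per library, a panel for each breed and phase, low RFI in blue and high RFI in orange. In no panel did the relation of the 2 genes, with RFI group means removed, reach an adjusted p under 0.1 by permutation. The point at the upper right of HF H1 is steer 2065, with 142 CPM of DGAT2 and 59.5 CPM of MID1IP1.

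Among 8945 genes with a mean of at least 5 CPM, likeness was measured as Spearman's rho over the 90 libraries with the group means removed. For DGAT2 the highest value was 0.54 (ENSBTAG00000018416) and the lowest -0.48 (ENSBTAG00000040215), and the 95th percentile of all genes was 0.23. For MID1IP1 the highest was 0.65 (ENSBTAG00000009570), and the 95th percentile was 0.37. C29H11orf86 was the third closest gene to MID1IP1, with a rho of 0.54. NFKBIA, an inhibitor of NF-kappa-B, and ERRFI1, a feedback inhibitor of the EGF receptor, were among the 3 genes with the lowest values, -0.52 and -0.53. The other genes by this rule had no name in the sources used here. Names were at hand only for genes the study had listed for an RFI difference in these samples, so that list decided which of these genes could be named. All these values share the same libraries and their depth.

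Of 97 genes of lipid metabolism listed by symbol, 3 could be matched to an identifier, and those 3 had names because the study had listed them for an RFI difference in these samples. The 15 genes of fatty acid synthesis, among them ACACA, ACACB, FASN, SCD and THRSP, could not be matched, nor could DGAT1, GPAM, SREBF1 and MLXIPL. G0S2, an inhibitor of the lipase that breaks down stored triglyceride, was lower in H2 than in H1 in both breeds, by -0.997 in CH (SE 0.22, edgeR adjusted p = 9.29e-05) and -0.74 in HF (SE 0.25, edgeR adjusted p = 0.011) on the log2 scale. CIDEC was lower in ZG than in H1 in HF, with a log2 difference of -0.88 (SE 0.43, edgeR adjusted p = 0.0765), which became 0.08 (adjusted p = 0.871) without steer 2065. APOC3, an inhibitor of triglyceride clearance from plasma, was not called in any phase contrast. Over the 6 phase contrasts, 1 of the 3 genes was thus called lower in CH H2 minus H1, in HF ZG minus H1 and in HF H2 minus H1, and 0 were called higher, beside 31.8%, 29.2% and 31.1% of all genes called lower, so this share was near the background. In those contrasts the medians of the 3 log2 differences were -0.44, -0.37 and -0.22. In CH ZG minus H1, CH ZG minus H2 and HF ZG minus H2 they were -0.03, 0.45 and 0.02. The median over all genes was -0.01 to 0.03 in the 6 contrasts. A median of 3 genes is the value of 1 gene, so no common direction of lipid genes is read from it.

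GPD1, which makes the glycerol 3-phosphate backbone of triglycerides and was picked after its name was seen, was lower in HF in ZG than in H1 (log2 difference -0.44, SE 0.14, edgeR adjusted p = 0.00636) and than in H2 (-0.50, SE 0.15, edgeR adjusted p = 0.0353). For MID1IP1 only the former of these contrasts was called. In H2 minus H1 the log2 difference of GPD1 was 0.09 in CH (95% interval -0.17 to 0.35), where MID1IP1 was called lower, and 0.06 in HF (-0.24 to 0.36), and neither was called. With the group means removed, GPD1 had a rho of 0.37 with MID1IP1 and of 0.04 with DGAT2 over the 90 libraries. CIDEC, G0S2 and APOC3 had values of 0.25, 0.26 and 0.27 with MID1IP1 and of -0.14, 0.17 and 0.30 with DGAT2. MID1, after which MID1IP1 is named, had values of -0.32 and -0.08. The 95th percentile of all genes was 0.37 for MID1IP1 and 0.23 for DGAT2. With MID1IP1, GPD1 lay just above it, at 0.375 against 0.370, while CIDEC, G0S2 and APOC3 lay below it. With DGAT2 only APOC3 lay above it.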

How the data were processed

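The authors prepared stranded mRNA libraries from percutaneous liver biopsies, sequenced 50 bp single-end reads, trimmed them with cutadapt in TrimGalore, aligned them with STAR to the bovine genome UMD3.1 and let STAR count reads per gene of Ensembl 87. Libraries of low depth and those they judged outliers were removed by them. The strand used in counting was not given in the sources used here. They deposited raw counts of 24616 genes in 90 libraries, and all were used. Trimming, alignment and counting could therefore not be varied. Libraries were grouped by the labels into 12 groups of breed, phase and RFI. Nothing states whether extraction batches existed.

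Phase, breed and interaction contrasts came from one edgeR 4.0.16 quasi-likelihood fit of the 12 groups in R 4.3.3 (TMM, filterByExpr, robust), with RFI groups weighted equally, and RFI contrasts from 6 separate fits as in the study. Adjusted p-values are Benjamini-Hochberg values over all genes tested, called under 0.1, and SE is that of the log2 difference. log2 CPM used a prior count of 2. Exact permutation and sign-flip tests were two-sided, and correlations in sets of 10 or more steers used 100000 permutations (Python 3.11.15, scipy 1.17.1). Limma 3.58.1, DESeq2 1.42.0 and other filters, normalisations and left-out libraries were alternatives. Steer numbers in the titles pair libraries of one animal: over 18 such pairs of 14 steers the median correlation of deviations from group means was 0.27, against -0.004 for other steers of the breed. Names came from 352 identifiers that a supplementary gene list of the study pairs with symbols. The fits were tested on simulated data. Named genes were the 2 genes, their closest partners, list members called with the largest change and those most alike in pattern. The genes and lists were chosen with earlier results of these data known.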

Additional observations from a re-analysis of the deposited data

Results flagged for a closer look

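In 4 groups, 1 library held the highest value of its group with a gap to the next that exceeded Dixon's 95% critical value. The test covered 18 pairs of a gene and a group of 4 to 10 steers, so each group was tested for both genes. Chance alone gives about 1 in 20 such pairs if values are normally distributed. The test was run on CPM and not on log2 CPM, and the distribution was not tested. The 4 libraries are therefore given as a description, and their number is not set against chance. For DGAT2 these were HF steer 2065 in H1, at 142 CPM against at most 41.8 CPM in the other high RFI steers, and CH steer 419 in H2, at 78.2 CPM against at most 42.4 CPM. For MID1IP1 they were CH steer 950 in H1, a low RFI steer at 49.6 CPM against at most 31.8 CPM, and HF steer 2094 in ZG, a low RFI steer at 51.02 CPM against at most 29.2 CPM.

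The library of CH steer 419 held 14.3 CPM of MID1IP1 and no CIDEC read, while its G0S2, at 9.98 CPM, lay inside the 3.34 to 11.1 CPM of the other 7 steers of its group. Without it, left out like the others after the data were seen, the log2 difference of DGAT2 in CH was 0.08 for H2 minus H1 and 0.17 for low minus high RFI in H2, and neither was called. The library of CH steer 950 was among the shallower ones, with 10389341 reads on genes, and held 608 MID1IP1 reads. Without it the log2 difference of MID1IP1 in CH was -0.35 for H2 minus H1 (edgeR adjusted p = 0.0476), and between RFI groups in H1 it was -0.83. The library of HF steer 2094 was also high in DGAT2, at 53.2 CPM. Without it the log2 difference of MID1IP1 in HF was -0.61 for ZG minus H1 (edgeR adjusted p = 0.00115). The first component scores of all 4 libraries lay inside the ranges of their groups.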

How the results depend on the processing

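The lower MID1IP1 in CH H2 and in HF ZG than in H1 was called in all 12 alternatives run for each, with log2 differences of -0.50 to -0.35 (adjusted p 0.00571 to 0.0476) and -0.61 to -0.48 (adjusted p 0.00115 to 0.0126). With the steer as a replicate block they were -0.47 and -0.57. MID1IP1 in HF H2 minus H1 was called in 1 of 16, at -0.30. DGAT2 in HF ZG minus H1 was called in 3 of 12, by limma-voom at 0.34 without and 0.34 with the replicate block and without steer 2065 (0.16 to 0.43 over libraries left out in turn), and in HF H2 minus H1 in 1 of 16 (0.040 to 0.33). The block changed no other call. All sign changes were of differences that were not called. With libraries left out in turn (those of groups of up to 5 steers, and the 4 that stood apart, chosen after the data were seen), DGAT2 spanned -0.15 to 0.014 in CH ZG minus H2, -0.072 to 0.040 in CH minus HF in ZG and -0.14 to 0.15 in the breed difference of H2 minus H1, was 0.17 for RFI in CH H2, -0.018 for the change of the HF RFI difference from H1 to H2 and 0.27 within steers in ZG minus H1, and MID1IP1 spanned -0.0077 to 0.19 and -0.046 to 0.17 in the same first 2 contrasts, -0.17 to 0.028 (RFI in HF H2), -0.083 to -0.015 and -0.16 (HF RFI difference in ZG minus H1 and minus H2), -0.021 (HF RFI difference in H2 minus H1), -0.00020 (RFI in CH H2) and 0.012 (permutation, HF H1). By limma-voom without and with the block, DGAT2 was 0.0017 and 0.0038 for CH minus HF in ZG and -0.059 and -0.060 for the breed difference of H2 minus H1, and MID1IP1 was -0.042 with the block for the HF RFI difference of ZG minus H2, where DESeq2 gave -0.0064. Without steer 1797 the RFI difference of MID1IP1 in HF H2 was 0.0068, with DESeq2 size factors 0.0025, and on CPM that of DGAT2 in CH H2 was -1.17 CPM. The cause was not tested. Small groups limited CH ZG most: 3 against 3 steers cannot give an exact p under 0.1.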
